A study of Homo sapiens with 8 samples.

Results

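Long non-coding RNAs (lncRNAs) with high expression were compared between auxin-resistant and parental cells. The members were selected on their mean level, as the genes that the annotation types as lncRNA and whose mean over the 8 libraries was at least 10 TPM (a level scaled to a fixed total per library and corrected for gene length), without PVT1. Of 16840 lncRNA genes in the table of 60754 rows, 141 were members. The choice used the mean level over all libraries and not the difference between resistant and parental cells. The members nearest the limit were ALOX12-AS1 (10.1 TPM) and STAG3L5P-PVRIG2P-PILRB (10.1 TPM), and the lncRNAs just outside it were PRKCQ-AS1 (9.95 TPM) and AL606834.2 (9.88 TPM).

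The cells were SEM, a human B-cell acute lymphoblastic leukemia (B-ALL) line with a rearranged KMT2A gene. In all groups both alleles of CTCF, which encodes a zinc finger protein that organizes chromatin loops, carried a miniAID-mClover3 tag at the 3′ end, and a lentivirus with the MND promoter supplied the rice auxin receptor OsTIR1(F74G) together with Zeocin resistance. The clones C17.2 and C3.2 each grew from a single sorted cell, so that each state of a clone was represented by 1 line. Parental cells were untreated (2 libraries per clone), and resistant cells had been cultured to day 36 in 1 μM 5-Ph-IAA, the ligand that triggers degradation of the tagged protein, and 100 μg/ml Zeocin, and were then off treatment for 48 h (2 libraries per clone). According to the study, resistant C17.2 carries a truncated CTCF that lacks the tag, and resistant C3.2 carries a missense change in the tag. In the study's immunoblots, resistant C17.2 off treatment also had the full-length tagged CTCF, which was still degraded on auxin.

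A lncRNA is a transcript without a long conserved reading frame, and its function, where known, lies in the RNA, in the act of transcription or in smaller RNAs cut from it. Small nucleolar RNA (snoRNA) host genes carry snoRNAs in their introns, and the spliced exons are often translated briefly and destroyed by nonsense-mediated decay. Antisense and divergent lncRNAs start at or across a coding gene and often share its promoter. Nuclear lncRNAs such as MALAT1 and NEAT1 are parts of speckles and paraspeckles.

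Ribosomal RNA had been depleted from total RNA, so that RNAs without a poly(A) tail were kept. TPM keeps no depth, and the depth of the libraries is unknown. Between the libraries of each group, Pearson's r over genes was 0.968 to 0.979. RNA of the tagged gene CTCF lay at 33.7 and 35.4 TPM in parental and 51.1 and 54.7 TPM in resistant C17.2, and at 32.2 and 32.3 TPM in parental and 41.5 and 44.2 TPM in resistant C3.2. Of 10 B-lineage markers 7 reached 1 TPM (summed level 553 to 747 TPM), whereas CD3D, EPCAM and COL1A2 were listed at 0 in every library and the erythroid list summed to at most 0.52 TPM. The T-cell list summed to 38.7 to 49.5 TPM, almost wholly from TRAC. The myeloid list summed to 2.23 to 4.59 TPM and the fibroblast or epithelial list to 2.3 to 7.52 TPM. IGLL1, a surrogate light chain gene of pre-B cells, lay at 80.6 to 166 TPM in the parental libraries and at 20.1 to 31.7 TPM in the resistant libraries. Whether a shift in B-cell stage had a part in the lncRNA results was not tested, and in bulk RNA fewer cells with a transcript and less transcript per cell cannot be told apart.

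The members took 1.14% to 1.63% of the TPM of a library. Their levels were uneven: the top 3 members held 54.1% of the members' TPM and the top 10 held 73.0%, and the median member had a mean of 19.7 TPM. A mean of at least 100 TPM was reached by 16 members, and 72 lay between 10 and 20 TPM. In 31 members at least 1 group mean was under 10 TPM, so that they passed the limit through the other groups. Among the falls named below, AC245297.3 had a mean above 10 TPM only in parental C17.2. LINC-PINT and LINC00342 had one only in the parental groups. The choice of these members was thus not independent of their falls. The replicates were close for most members, with a median coefficient of variation of 3.52% to 4.11% per group. SNHG25 was the exception, with a coefficient above 25% in every group: its libraries read 86.1 and 48.2 TPM in parental and 13.7 and 39.0 TPM in resistant C17.2, and 100.2 and 165 TPM in parental and 123 and 13.3 TPM in resistant C3.2.

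The members with the highest means were MALAT1, a nuclear speckle RNA, and RMRP, the RNA of the RNase MRP ribonucleoprotein. MALAT1 lay at 2306 to 3833 TPM and RMRP at 1185 to 3627 TPM. Neither passed the test in a clone: the log2 fold change of MALAT1 was -0.14 in C17.2 (95% interval -0.30 to 0.03) and 0.16 in C3.2 (-0.01 to 0.33), and that of RMRP was -0.14 (-0.46 to 0.18) and 0.19 (-0.13 to 0.51). The highest levels were followed by AL360012.1, AC006064.5, SNHG29, AL355075.4, SNHG5, GAS5, SNHG8 and ZFAS1. Of these, AL360012.1 lies over RNU11, the U11 small nuclear RNA, AC006064.5 over SCARNA10 and AL355075.4 over RPPH1, the RNA of RNase P. RNU11 was listed at 0 in every library, SCARNA10 at 1004 to 1613 TPM and RPPH1 at 23220 to 28702 TPM. Because the rows overlap, reads of these lncRNAs and of the small RNAs cannot be told apart. AL360012.1, annotated at 131 bases, read 1618 to 2322 TPM, and whether these were reads of RNU11 was not tested. The strand of counting is also not given in the sources used here.

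How many of these lncRNAs differed between resistant and parental cells was asked in each clone. In C17.2, 62 of 141 members (44.0%) passed the threshold (limma, Benjamini-Hochberg adjusted p under 0.05 over all 15614 tested genes), and 14 rose and 48 fell. Over all tested genes 27.3% passed, with 13.4% higher and 13.9% lower. The 6394 protein-coding genes with the same mean limit gave 37.4%, with 20.8% higher and 16.6% lower. The members' share of 34.0% lower was thus above that of coding genes of like level, and their share of 9.93% higher was below it. The median log2 fold change was -0.14 over the members, 0.03 over these coding genes and 0.00 over all tested genes. By 2-fold or more, 8 members fell and 0 rose among those past the threshold. In either direction, 447 of the 15614 tested genes and 138 of the 6394 coding genes did so.

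In C3.2, 39 of 141 members (27.7%) passed, and 12 rose (8.51%) and 27 fell (19.1%). The background was 11.4% of all tested genes, with 4.46% higher and 6.9% lower, and 14.6% of the coding genes, with 5.49% higher and 9.12% lower. The median of the members was 0.01, with -0.01 over the coding genes. LINC00426 was the 1 member past the threshold that fell by 2-fold or more. In either direction, 136 of the 15614 tested genes and 30 of the 6394 coding genes changed by that much. All 12 members that rose and all 27 that fell had resistant libraries that did not overlap the parental libraries in deposited TPM. In C17.2 this held for 57 of the 62. Lack of overlap was also common among members not called: in C3.2, 55 lay higher, 17 lay lower and 30 overlapped. In C17.2, 42 of those not called lay higher, 4 lay lower and 33 overlapped. Lack of overlap was thus more common among called members, but it did not by itself mark a call. Its share over all tested genes was not counted.

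**Figure D1:**
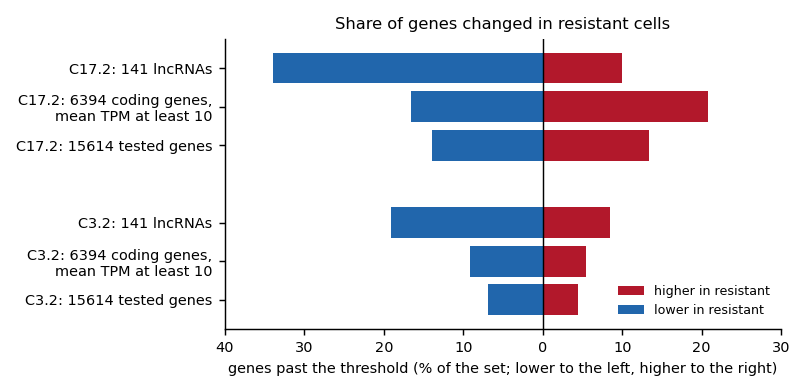
Bars give the percentage of genes past the threshold of 0.05 in each clone, lower in resistant cells to the left and higher to the right, for the 141 lncRNAs, 6394 coding genes with a mean of at least 10 TPM and 15614 tested genes. The lncRNA bars reach 34.0% to the left in C17.2 and 19.1% in C3.2, farther than those of the other sets.

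The split of directions depended on how the libraries were scaled. With TPM as deposited, where the median of all genes shifted by 0.13 in C17.2, 29 members rose and 33 fell there, and over a fixed sum of coding genes 22 rose and 39 fell, against 14 and 48 above. In C3.2 the coding-gene scaling gave 37 higher and 24 lower, a turn in the balance, against 12 and 27, and quantile normalization 17 and 25. All tested genes turned with the coding-gene scaling as well, from 696 higher and 1077 lower to 1705 and 725. Of the calls over all tested genes, 75.1% were higher in C17.2 with TPM as deposited, against 46.8% of the members' calls. With the coding-gene scaling these shares were 70.2% and 60.7% in C3.2. In the model used they were 49.1% and 22.6% in C17.2 and 39.3% and 30.8% in C3.2. The members thus had the smaller share higher in each. When C3.2 was fitted alone, 0 members rose and 2 fell (GIHCG and LINC01108; 27 higher and 38 lower at an unadjusted p under 0.05), and no other call of C3.2 named here held in that fit. At an unadjusted p under 0.05 (limma), 73 of 141 members differed in C3.2 in the fit of all libraries. The same held for 4307 of 15614 tested genes and 2123 of 6394 coding genes of like level.

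Members that changed in both clones numbered 30, and 71 changed in at least 1 clone. Calls shared by the clones were not counted over all tested genes, so these numbers have no background beside them. Of the 30, 21 fell in both, 6 rose in both and 3 moved in opposite directions. Changes in C17.2 alone were called for 32 members and in C3.2 alone for 9, without this by itself showing a difference between the clones. Of the 21 that fell in both, 13 fell more in C17.2, and the difference passed its own test for 7, all with the larger fall in C17.2.

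**Figure D2:**
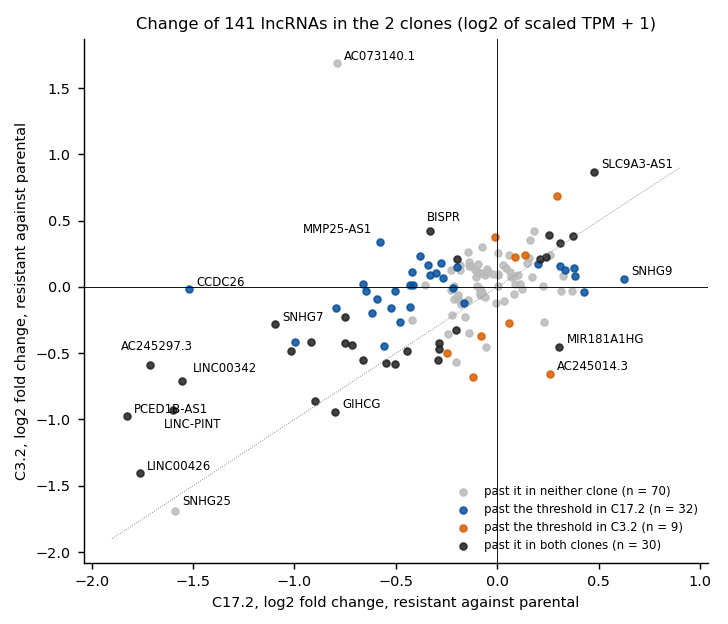
Each point is 1 of the 141 lncRNAs, with the log2 fold change (resistant against parental) of C17.2 on the x axis and of C3.2 on the y axis, and colors give the clones in which it passed the threshold (both 30, C17.2 alone 32, C3.2 alone 9, neither 70). LINC00426 and PCED1B-AS1 lie far down and to the left, whereas CCDC26 lies to the left at the level of 0.

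For the class counts here and below, the shares of all tested genes that passed were 27.3% in C17.2 and 11.4% in C3.2. Coding genes of like level gave 37.4% and 14.6%. Among the 9 lncRNAs with LINC names, 7 fell in C17.2 and 4 in C3.2, and 0 rose in either clone, also at an unadjusted p under 0.05 (limma). The median log2 fold change was -0.53 in C17.2 and -0.16 in C3.2, and it was below 0 under each of the 4 scalings. LINC00426 (ENSG00000238121.6) is on chromosome 13 of GRCh38, from 30340267 to 30377145 on the reverse strand. LINC-PINT (ENSG00000231721.7), a lncRNA known to be induced by p53, is on chromosome 7 from 130791264 to 131110176 on the reverse strand. SNHG7, LINC00426 and LINC-PINT are shown because they fell in both clones and hold the letters CACGTG, the E-box bound by MYC and MAX, in the window from 250 bases before to 50 after an annotated start. The sequences are from RefSeq on GRCh38.p14, reverse strand, at chr7:130913360-130913419 for LINC-PINT, chr13:30373956-30374015 for LINC00426 and chr9:136728274-136728333 for SNHG7, and capitals mark CACGTG, which reads the same on both strands.
LINC-PINT: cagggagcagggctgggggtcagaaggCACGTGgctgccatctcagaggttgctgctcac
LINC00426: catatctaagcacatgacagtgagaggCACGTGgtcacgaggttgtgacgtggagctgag
SNHG7: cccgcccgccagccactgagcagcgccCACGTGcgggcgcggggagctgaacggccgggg

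A start window was found for 88 of the 141 members. CACGTG was in 14.8% of the 108 member windows and in 7.26% of 35116 windows of all genes. By direction in C17.2, it was in 4 of 34 matched members that fell, 2 of 13 that rose and 9 of 41 not called, so that the letters were no more frequent among the members that fell. A match is a description of letters, not of binding.

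LINC00426 read 30.5 and 30.1 TPM in parental and 9.67 and 8.74 TPM in resistant C17.2, and 29.9 and 32.8 TPM in parental and 13.7 and 10.1 TPM in resistant C3.2. All resistant libraries lay below all parental libraries. The log2 fold change was -1.76 (standard error 0.116, adjusted p = 0.000212, limma) in C17.2 and -1.41 (adjusted p = 0.00171) in C3.2. The clones were not separated by their test (difference -0.36, 95% interval -0.75 to 0.04).

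The titles carry a number per library that runs on within a clone and is set apart between the clones; what it marks is not given, and a batch that goes with it cannot be told apart from the clone where levels are compared across clones. LINC-PINT started from unequal levels, 19.5 and 18.4 TPM in parental C17.2 and 11.1 and 11.5 TPM in parental C3.2. It ended at like levels, 6.25 and 6.2 TPM in resistant C17.2 and 5.73 and 5.76 TPM in resistant C3.2. It fell by 1.60 on the log2 scale in C17.2 (adjusted p = 1.97e-05, limma) and by 0.93 in C3.2 (adjusted p = 0.000445), and the fall was larger in C17.2 (difference -0.67, adjusted p = 0.00448). LINC00342 also fell in both clones, with 21.6 and 19.96 TPM against 7.18 and 7.14 TPM in C17.2, and 15.1 and 15.2 TPM against 9.22 and 9.46 TPM in C3.2. Its difference between the clones was -0.84 (adjusted p = 0.00252, limma).

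LINC01108 fell evenly, from 17.3 and 16.5 TPM to 9.68 and 9.52 TPM in C17.2 and from 29.2 and 29.1 TPM to 16.6 and 16.2 TPM in C3.2. The log2 fold changes were -0.90 and -0.86, and the difference of -0.04 had a 95% interval of -0.20 to 0.12. GIHCG, which has no LINC name, fell from 31.3 and 30.95 TPM to 19.1 and 20.03 TPM in C17.2 and from 33.0 and 32.8 TPM to 17.6 and 17.4 TPM in C3.2. Its log2 fold changes were -0.80 (adjusted p = 0.00016, limma) and -0.94 (adjusted p = 0.000373). These 2 members were the ones called in C3.2 under every alternative processing.

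PCED1B-AS1 (chromosome 12 of GRCh38, 47205893 to 47216487, reverse strand) had the largest fall in C17.2. It read 36.4 and 32.6 TPM in parental and 8.72 and 11.5 TPM in resistant C17.2, and 18.8 and 15.5 TPM in parental and 10.1 and 7.38 TPM in resistant C3.2. The groups of each clone did not overlap, and parental C3.2 lay between the groups of C17.2. The log2 fold changes were -1.83 (adjusted p = 0.000663, limma) and -0.98 (adjusted p = 0.0166), and the call in C3.2 was lost in 5 of the 8 fits that left out 1 library. PCED1B, the coding gene on the other strand, whose exons overlap it, had a mean of only 0.823 TPM. At this low level its log2 fold changes were -1.24 in C17.2 and -0.05 in C3.2.

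**Figure D3:**
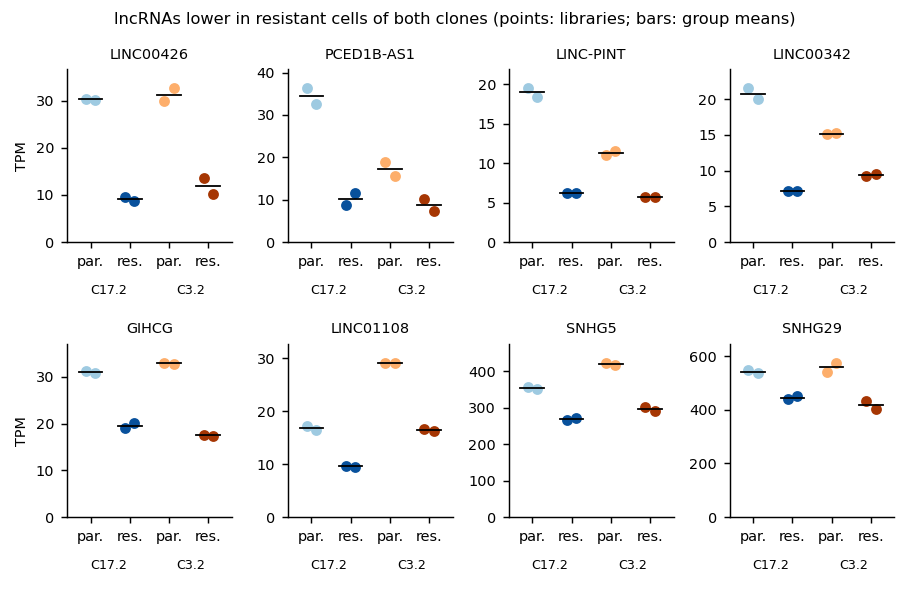
Points give the TPM of each library (y axis, from 0) and bars the group means for 8 lncRNAs that fell in both clones, by clone and state. For LINC00426 the resistant libraries lie at 8.74 to 13.7 TPM, under the parental libraries at 29.9 to 32.8 TPM.

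The snoRNA host genes formed the largest functional class, with 23 members. In C17.2, 10 fell, 5 rose and 8 did not pass, with a median log2 fold change of -0.29, and in C3.2, 6 fell, 1 rose and 16 did not pass, with a median of -0.16. The median was below 0 under each of the 4 scalings in both clones, from -0.29 to -0.13 in C17.2 and from -0.16 to -0.05 in C3.2, although with TPM as deposited 9 hosts rose and 8 fell in C17.2.

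Many host genes belong to the class whose transcripts begin with a C and a run of pyrimidines, as ribosomal protein mRNAs do. Of 20 hosts with a start window, 5 (25%) had a C followed by at least 4 pyrimidines at an annotated start, against 4.07% of all 35116 windows and 6.48% of the member windows. These 5 starts are shown because hosts of this kind went in different directions. Each covers 15 bases before to 35 after the start, RefSeq on GRCh38.p14, with the pyrimidine run from the first transcribed base in capitals. The positions are chr6:85678699-85678748 (reverse) for SNHG5, chr20:49278627-49278676 (forward) for ZFAS1, chr16:2155324-2155373 (reverse) for SNHG19, chr5:139274086-139274135 (forward) for SNHG4 and chr1:28581839-28581888 (reverse) for SNHG12.
SNHG5: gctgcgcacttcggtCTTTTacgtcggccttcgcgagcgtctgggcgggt
ZFAS1: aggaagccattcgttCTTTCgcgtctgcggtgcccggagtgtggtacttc
SNHG19: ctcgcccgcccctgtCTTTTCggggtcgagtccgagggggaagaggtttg
SNHG4: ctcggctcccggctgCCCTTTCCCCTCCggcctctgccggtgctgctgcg
SNHG12: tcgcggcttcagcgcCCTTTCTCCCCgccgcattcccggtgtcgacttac

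SNHG5 and ZFAS1 fell in both clones, SNHG4 and SNHG12 rose in C17.2, and SNHG19 passed in neither (log2 fold changes -0.21 and -0.09). SNHG5, the host with the second highest mean, read 357 and 351 TPM in parental and 267 and 273 TPM in resistant C17.2, and 423 and 417 TPM against 301 and 290 TPM in C3.2. Its log2 fold changes were -0.55 (adjusted p = 0.000484, limma) and -0.57 (adjusted p = 0.00149). The fall was of like size, and the difference of 0.02 had a 95% interval of -0.13 to 0.17.

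SNHG29 read 551 and 536 TPM against 441 and 451 TPM in C17.2 and 543 and 576 TPM against 434 and 405 TPM in C3.2, with log2 fold changes of -0.44 (adjusted p = 0.000812, limma) and -0.48 (adjusted p = 0.00223). GAS5, named for its rise in growth arrest, read 336 and 331 TPM against 302 and 309 TPM in C17.2 and 359 and 368 TPM against 288 and 262 TPM in C3.2. It fell in both clones, by 0.29 and 0.47 on the log2 scale (adjusted p = 0.00523 and 0.00288, limma), and with TPM as deposited the call in C17.2 was lost. ZFAS1 had log2 fold changes of -0.29 (adjusted p = 0.0424, limma) and -0.42 (adjusted p = 0.0245). Its calls were the least stable of the 4 most abundant hosts that fell in both, being lost in 6 of the 8 fits that left out 1 library in each clone.

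SNHG1, SNHG7 and SNHG8 fell more in C17.2 than in C3.2. SNHG1 read 159 and 156 TPM against 99.0 and 104 TPM in C17.2, and 85.6 and 91.1 TPM against 81.8 and 83.9 TPM in C3.2. The resistant level of C17.2 thus came near the parental level of C3.2. The difference between the clones was -0.64 (adjusted p = 0.00493, limma). SNHG7 read 97.7 and 87.8 TPM against 48.1 and 47.5 TPM in C17.2, and 57.5 and 58.4 TPM against 52.2 and 47.4 TPM in C3.2, with a difference of -0.82 (adjusted p = 0.00182, limma). SNHG8 fell from 245 and 227 TPM to 164 and 171.6 TPM in C17.2, whereas in C3.2 it read 169 and 180 TPM in parental and 174 and 184 TPM in resistant cells, which overlap. Its difference was -0.62 (adjusted p = 0.00739, limma).

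SNHG4 read 50.4 and 51.9 TPM against 73.7 and 81.3 TPM in C17.2 (log2 fold change 0.43, adjusted p = 0.00362, limma). In C3.2 its libraries lay at 72.8 to 74.8 TPM in both states (log2 fold change -0.04). SNHG9 rose from 14.7 and 13.96 TPM to 24.3 and 26.5 TPM in C17.2 (0.63, adjusted p = 0.0144, limma), a call lost in 4 of the 8 fits that left out 1 library. SNHG12 and SNHG16 rose by 0.38 and 0.33 in C17.2. SNHG20 was the 1 host that rose in both clones, from 13.1 and 12.7 TPM to 17.18 and 17.8 TPM in C17.2 and from 11.0 and 11.3 TPM to 15.9 and 15.2 TPM in C3.2 (0.26 and 0.39, adjusted p = 0.0073 and 0.00477, limma). SNHG10 fell in both, by 0.66 and 0.55 on the log2 scale (the call in C3.2 was lost in 4 of the 8 fits), and EPB41L4A-AS1 fell by 1.00 in C17.2.

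The summed TPM of the snoRNAs inside a host could be followed for 12 of 22 hosts with annotated snoRNAs, since in the others the sum was listed at 0 in at least 1 library. In C17.2, 8 of these 12 hosts changed, and the snoRNA sum of 1 moved with its host without overlap (SNHG20, from a mean of 723 to 891 TPM), 1 moved against it (SNHG8, from 22.1 to 43.8 TPM) and 6 overlapped. SNHG7 was among the latter, with a snoRNA sum of 542 TPM in parental and 549 TPM in resistant cells beside the fall of its exons. In C3.2, 3 of the 12 changed, and the sums of SNHG7 (869 to 761 TPM) and SNHG10 (449 to 373 TPM) fell below the parental libraries. Sums of hosts not called in C3.2 also fell without overlap: SNHG1 (963 to 779 TPM), SNHG3 (17410 to 14700 TPM), DANCR (101 to 66.4 TPM) and SNHG25. The sum of SNHG17, not called, rose from 471 to 502 TPM. In C17.2 the sums of DANCR and SNHG3 rose and that of SNHG17 fell, with these hosts not called. The sums are of TPM as deposited, whereas the host changes are of scaled TPM.

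**Figure D4:**
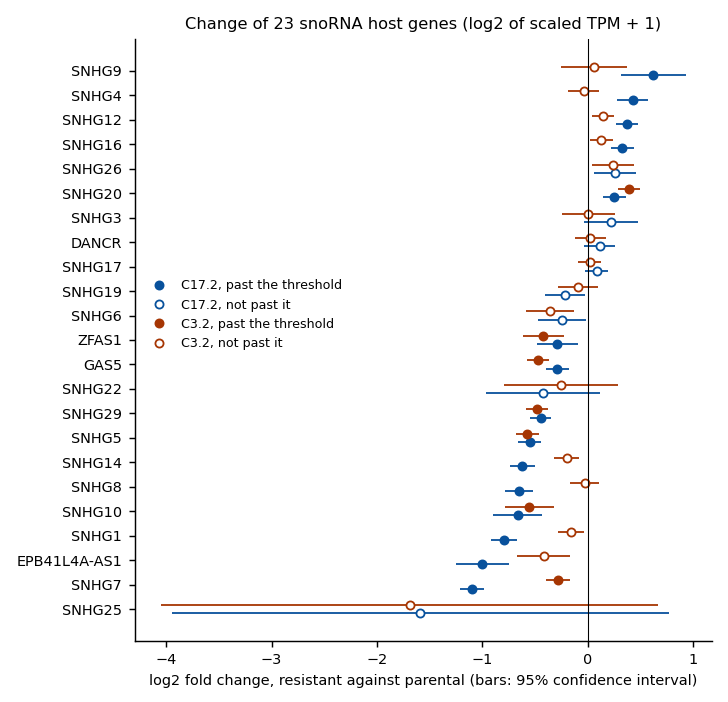
Points give the log2 fold change (x axis, resistant against parental) of the 23 snoRNA host genes in each clone, with 95% confidence intervals as lines, and filled points passed the threshold. Filled points of C17.2 lie on both sides of 0, with 10 below and 5 above.

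The 41 antisense or divergent lncRNAs moved in both directions. In C17.2, 15 fell and 5 rose (median log2 fold change -0.14, but 0.00 with TPM as deposited), and in C3.2, 4 fell and 5 rose (median 0.11). With the coding-gene scaling 17 rose and 3 fell in C3.2. SLC9A3-AS1 (chromosome 5 of GRCh38, 473236 to 480884, forward strand) had the largest rise in C3.2. It read 23.0 and 21.8 TPM against 35.8 and 34.7 TPM in C17.2 and 14.2 and 14.6 TPM against 30.3 and 26.4 TPM in C3.2. The log2 fold changes were 0.48 (adjusted p = 0.00192, limma) and 0.87 (adjusted p = 0.000803). The rise was larger in C3.2 (difference -0.39, adjusted p = 0.0321, limma), a call lost in 6 of the 8 fits that left out 1 library. MEF2C-AS1 rose by 0.69 in C3.2 (adjusted p = 0.0179, limma), a call lost in 5 of these 8 fits.

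A coding gene that starts within 1000 bases in the other direction was found for 34 members. In C17.2, 15 of these members changed, and the coding partner changed in the same direction for 2, in the opposite direction for 3 and was not called for 10. In C3.2, 6 changed, with 1 partner in the same direction, 0 opposite and 5 not called. For 37 members whose exons overlap a coding gene on the other strand, 23 changed in C17.2, with 5 partners in the same direction, 4 opposite and 14 not called. In C3.2, 10 of these 37 changed, with 1 partner in the same direction, 2 opposite and 7 not called. Of all coding genes with a mean of at least 10 TPM, 37.4% passed in C17.2 and 14.6% in C3.2. In C17.2 the partner calls were near its share, so the counts there show nothing particular to partners. In C3.2 the partner calls of the pairs with exon overlap lay above the share, but these counts are too small to compare. Where exons overlap, reads of member and partner cannot be told apart without the strand.

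SNHG1 and SLC3A2, the heavy chain of the amino acid transporter LAT1, start 51 bases apart. In C17.2 SNHG1 changed by -0.80 and SLC3A2 by -1.29 on the log2 scale, and in C3.2 the values were -0.16, not called, and -0.65. SNHG9 and RPS2, a ribosomal protein gene, start 54 bases apart and moved apart, with 0.63 for SNHG9 and -0.45 for RPS2 in C17.2. BISPR and BST2, an interferon-induced membrane protein gene, start 56 bases apart, and in C17.2 BISPR changed by -0.33 and BST2 by 0.52, whereas in C3.2 both rose, by 0.42 and 0.32. LINC-PINT fell beside MKLN1, which did not pass (-0.11). GARS-DT changed by -0.51 in C17.2 beside GARS, the glycyl-tRNA synthetase gene, with -1.73, and in C3.2 the values were -0.03, not called, and -0.55. AL139020.1 had log2 fold changes of -0.12 in C17.2, not called, and -0.68 in C3.2, and TCL1A, a B-cell oncogene whose exons overlap it, had -2.14 and -1.76.

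The other functional groups were small. Of 7 nuclear architecture RNAs, 2 fell in C17.2, and 0 passed in C3.2 by limma (1 at an unadjusted p under 0.05). NEAT1, the scaffold of paraspeckles, read 108 and 105 TPM against 98.6 and 97.6 TPM in C17.2 and 78.0 and 79.6 TPM against 100.0 and 87.3 TPM in C3.2. Its log2 fold change was -0.28 in C17.2 (adjusted p = 0.0111, limma), a call lost with TPM as deposited and in 2 of the 8 fits that left out 1 library, and 0.18 in C3.2 (adjusted p = 0.0857). TERC, the telomerase RNA, had log2 fold changes of -0.56 in C17.2 (adjusted p = 0.0361, limma, lost in 6 of the 8 fits that left out 1 library) and -0.45 in C3.2 (adjusted p = 0.111). A small RNA row that overlaps TERC (RF00024) went from 132 and 117 TPM to 77.3 and 68.6 TPM in C17.2. In C3.2 it went from 215 and 197 TPM to 133 and 66.65 TPM, and the reads of both rows cannot be told apart. Of the list of DNA damage and p53 lncRNAs, NEAT1, NORAD and LINC-PINT were members, and LINC-PINT was the 1 that fell in both clones. None of the list of HOXA cluster lncRNAs was a member, and 0 of 3 sponge RNAs (OIP5-AS1, NORAD and CYTOR) passed in either clone by limma (0 in C17.2 and 1 in C3.2 at an unadjusted p under 0.05). The 41 lncRNAs with clone-based names had 7 lower and 3 higher in C17.2 and 9 lower and 4 higher in C3.2. In C17.2 the nuclear architecture and clone-based counts were near the 27.3% of all tested genes and below the 37.4% of coding genes. They thus show nothing particular to these groups. In C3.2 the clone-based counts were near the 27.7% of all members.

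Whether the clones differed in the change was tested for each member. Of 141, 35 (24.8%) passed, against 9.9% of all tested genes and 14.5% of the coding genes of like level (8.24% higher and 6.22% lower). In 29 (20.6%) the log2 fold change was lower in C17.2 and in 6 (4.26%) it was higher, against 4.99% and 4.91% of all tested genes. With TPM as deposited 13 were lower and 5 higher. Each fold change was taken between libraries of 1 clone.

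CCDC26 had the largest difference. It read 52.2 and 51.2 TPM against 18.2 and 20.7 TPM in C17.2, and 59.9 and 59.7 TPM against 61.3 and 62.6 TPM in C3.2. It fell in C17.2 (log2 fold change -1.52, adjusted p = 4.63e-05, limma), and in C3.2 the change of -0.02 had a 95% interval of -0.17 to 0.14. The difference was -1.50 (adjusted p = 0.000661, limma). AC245297.3 fell from 19.2 and 18.4 TPM to 5.92 and 5.32 TPM in C17.2 and from 9.55 and 10.4 TPM to 6.67 and 6.58 TPM in C3.2, with a difference of -1.13 (adjusted p = 0.00216, limma). It passed the limit on the mean level through parental C17.2 (group mean 18.8 TPM), the group from which it fell most.

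MIR181A1HG moved in opposite directions. It hosts miR-181a and miR-181b, which regulate lymphocyte development, and is on chromosome 1 of GRCh38, from 198777861 to 198937471 on the reverse strand. The mature miRNAs are shown because they share the seed (bases 2 to 8, in capitals) and lie inside a member that changed in both clones. They are from RefSeq on GRCh38.p14, reverse strand, at chr1:198859108-198859130 for miR-181a-5p and chr1:198858925-198858947 for miR-181b-5p.
hsa-miR-181a-5p: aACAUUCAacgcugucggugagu
hsa-miR-181b-5p: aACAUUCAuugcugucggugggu
The rows of both hairpins were listed at 0 in every library, so that the host alone was measured. MIR181A1HG read 19.1 and 17.25 TPM in parental and 25.2 and 25.4 TPM in resistant C17.2, and 17.04 and 18.3 TPM in parental and 13.9 and 12.6 TPM in resistant C3.2. The groups did not overlap in either clone, and the parental levels of the clones did. It rose by 0.31 in C17.2 (adjusted p = 0.00578, limma) and fell by 0.45 in C3.2 (adjusted p = 0.00435), a difference of 0.76 (adjusted p = 0.00258). DLEU2, which hosts miR-15a and miR-16, had log2 fold changes of 0.17 (adjusted p = 0.0524, limma) and 0.08 (adjusted p = 0.393).

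BISPR went the other way, from 12.5 and 10.8 TPM to 10.1 and 10.0 TPM in C17.2 and from 9.78 and 9.35 TPM to 13.7 and 13.7 TPM in C3.2. Its log2 fold changes were -0.33 (adjusted p = 0.0123, limma) and 0.42 (adjusted p = 0.0137), and the difference was -0.75 (adjusted p = 0.00662). Leaving out 1 library lost the call in 2 of 8 fits in C17.2 and in 3 of 8 in C3.2. MMP25-AS1 read 19.7 and 17.5 TPM against 12.5 and 14.8 TPM in C17.2 and 9.64 and 9.90 TPM against 14.5 and 11.97 TPM in C3.2. The parental clones lay apart and the resistant clones overlapped. The difference was -0.91 (adjusted p = 0.00897, limma), lost in 3 of these 8 fits.

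AC245014.3 read 6.66 and 8.08 TPM against 9.21 and 11.0 TPM in C17.2 and 18.5 and 15.8 TPM against 11.0 and 11.1 TPM in C3.2, with a difference of 0.91 (adjusted p = 0.0351, limma). It overlaps RNVU1-14, a variant U1 small nuclear RNA, which read 42.2 and 33.7 TPM against 64.8 and 62.7 TPM in C17.2 and 82.1 and 81.5 TPM against 38.3 and 39.4 TPM in C3.2. Both rows were higher in resistant than in parental C17.2 and lower in resistant than in parental C3.2, and their reads cannot be told apart. The difference of AC245014.3 was lost in each of the 8 fits that left out 1 library.

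**Figure D5:**
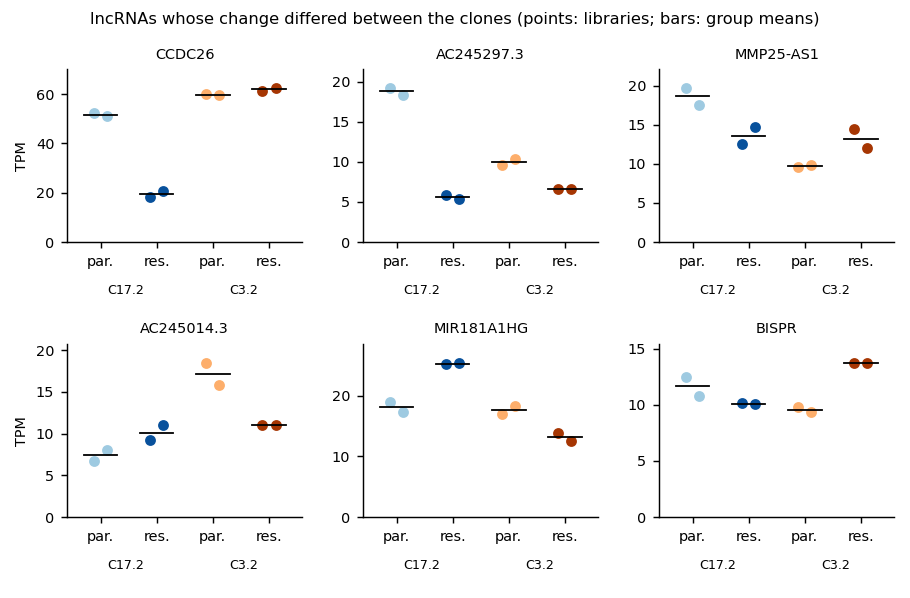
Points give the TPM of each library (y axis, from 0) and bars the group means for 6 lncRNAs whose change differed between the clones. CCDC26 lies at 18.2 and 20.7 TPM in resistant C17.2 and at 51.2 to 62.6 TPM in the other libraries.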

How the data were processed

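The authors prepared libraries from total RNA depleted of ribosomal RNA. Per the labels' processing notes and the methods, reads were trimmed with Trim Galore 0.6.3, aligned with STAR 2.7.9a and quantified with RSEM 1.3.1 on Gencode release 31, and the deposited values are TPM per gene and library. The methods describe paired-end and the labels single-end reads.

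TPM was divided by a trimmed mean of log2 ratios (30% of ratios and 5% of means trimmed from each end), and log2(scaled TPM + 1) of 15614 genes with at least 1 TPM in 1 library was tested with limma 3.58.1 (R 4.3.3, intensity trend, two-sided, Benjamini-Hochberg adjusted p under 0.05) in 1 model of 4 groups. All log2 fold changes refer to this scale and are too small for genes of low TPM. The study used limma-voom, which takes counts, and TPM does not allow it. On simulated data of the C17.2 comparison (15614 genes, 200 changed by a log2 value of 1) 91% were recovered and 4.21% of calls were false. The simulated noise was independent between libraries, and the median absolute log2 fold change of the members in C17.2 was 0.22. These rates therefore do not give the error of the calls reported here. The labels do not say that libraries came from separate cultures, so p-values may measure technical spread. With 2 libraries against 2, an exact permutation test cannot go below p = 0.333.

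The members and lists were chosen with earlier results of these data known. Named genes were the 10 with the highest mean, the 10 largest rises and falls per clone among those past the threshold without overlap of groups, the 6 largest differences between the clones, the genes at the limit, and members of the lists. GARS-DT, the coding partners and the genes so marked in the closing section were chosen after their values were seen. Positions are from Gencode release 44 (137 of 141 members matched) and sequences from RefSeq. Alternatives are given in the closing section. Tables and plots were made in Python 3.11.15 (pandas 2.3.3, matplotlib 3.10.9).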

Additional observations from a re-analysis of the deposited data

Results flagged for a closer look

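The results listed here are members whose change differed between the clones by the interaction in limma (values are the log2 fold change of C17.2 minus that of C3.2, with Benjamini-Hochberg adjusted p). The 6 largest differences were -1.50 for CCDC26 (adjusted p = 0.000661), -1.13 for AC245297.3 (0.00216), -0.91 for MMP25-AS1 (0.00897), 0.91 for AC245014.3 (0.0351), -0.84 for LINC00342 (0.00252) and -0.82 for SNHG7 (0.00182). The difference of AC245014.3 was lost in each of the 8 fits that left out 1 library.

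Opposite changes that passed in both clones were found for 3 members. MIR181A1HG differed by 0.76 (adjusted p = 0.00258, limma) and BISPR by -0.75 (0.00662). WARS2-AS1, chosen after its values were seen, differed by -0.41 (adjusted p = 0.0212, limma, up to 0.127 under the alternatives). Its libraries read 21.5 and 20.2 TPM in parental and 19.4 and 21.0 TPM in resistant C17.2, which overlap before scaling, and 13.8 and 15.1 TPM against 18.4 and 16.9 TPM in C3.2.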

How the results depend on the processing

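No paired analysis was possible because the labels give no replicate numbers shared between groups. Of 55 called changes of named members, all 55 kept their direction in every alternative, 30 kept the call in every alternative with all libraries, 36 with each library left out and 51 under the 3 other scalings. Over all members, 46 of 62 calls in C17.2 held in every alternative with all libraries, 2 of 39 in C3.2 and 13 of 35 differences between the clones, and 43, 11 and 9 held with each library left out.

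With TPM as deposited, 29 members were higher in C17.2 (14 in the model used) and 18 differed between the clones (35), and the medians were 0.0232 in C17.2, 0.0718 in C3.2 and -0.0293 for the difference. With the coding-gene scaling, 22 were higher in C17.2 and 37 in C3.2, and the medians were -0.0533 and 0.107. Without the filter on low values, 7 were higher in C3.2 and 20 differed between the clones. Without the intensity trend 7 were higher in C3.2. With C3.2 fitted alone, 0 were higher and 2 lower there. A mean of at least 5 TPM (327 members) gave 33 higher and 77 lower in C17.2, 32 higher in C3.2, 56 differences, and medians of -0.0867, 0.0746 and -0.168 for the difference. A mean of at least 20 TPM (69 members) gave 6 higher and 23 lower, 3 higher and 12 lower, 15 differences, and a median difference of -0.0495.

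Leaving out 1 library gave 9 to 18 higher and 36 to 52 lower in C17.2, with 9 higher without parental library 2 of C17.2. It gave 2 to 9 higher and 9 to 28 lower in C3.2, with 9 lower without either parental library of C3.2, and 9 to 35 differences. Over all tested genes the calls of C3.2 went from 1773 to 1167 without the filter, to 77 alone and to 326 to 1789 with 1 library left out, those of C17.2 from 4261 to 2372 to 4545, and the differences from 1546 to 540 to 1748. The cause was not tested.

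Directions that turned were of changes not called. With TPM as deposited these were MALAT1 (0.0232) and RMRP (0.0227) in C17.2 and SNHG8 (0.0389) in C3.2. SNHG8 in C3.2 also turned with the coding-gene scaling (0.0762) and quantile normalization (0.0561), and ranged from -0.101 to 0.0448 with 1 library left out. In C3.2 AC006064.5 ranged from -0.0854 to 0.249 and AL355075.4 from -0.127 to 0.158 with 1 library left out. TPM gives no counts, so the depth that limits low members is unknown. Fits of each clone alone give no difference between the clones.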

Other observations

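AC073140.1, chosen after its values were seen, had libraries of 1 group far apart. It read 15.4 and 19.5 TPM in parental and 14.8 and 7.71 TPM in resistant C17.2, and 7.74 and 1.46 TPM in parental and 12.4 and 16.6 TPM in resistant C3.2. Neither change passed (log2 fold changes -0.79, adjusted p = 0.389, and 1.69, adjusted p = 0.137, limma). AC004687.1, the current MIR142HG, also chosen after its values were seen, which hosts the blood cell miRNA miR-142, read 25.7 and 25.9 TPM against 26.1 and 23.8 TPM in C17.2 and 41.6 and 35.04 TPM against 32.1 and 22.2 TPM in C3.2. Its log2 fold changes were -0.20 (adjusted p = 0.404, limma) and -0.56 (adjusted p = 0.0774).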
